A study of Mus musculus with 2 samples.

Results

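The histone genes described here are the genes whose symbol in the platform annotation begins with H1f, H2ac, H2bc, H3c, H4c, H2ax, H2az, H3f or a like older form. A few histone genes with other symbols, such as H2aj and H4f16, are not among them. The genes described number 58 of 16593 named genes and are measured by 65 of the 25697 probes. Of the 58, 51 belong to the histone gene clusters and 7 are variant genes outside them. The samples were mouse fibroblasts kept on gold nanoparticles (AuNPs) during exposure to an electromagnetic field (EMF), called exposed cells below, and control mouse fibroblasts. Each condition has 1 single-colour Illumina bead array. The series title places them in work on EMF-mediated conversion into dopamine neurons. The labels used here give no strain, age, passage, particle size, field strength or exposure time. No array of AuNPs alone or of EMF alone was analysed here, so the effects of particles and field cannot be told apart. With 1 array per condition no value carries a replicate error, and no test between conditions was possible.

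The median intensity was 162 on the exposed array and 165 on the control array, and the share of probes detected was 46.6% on the exposed and 46.7% on the control array. All 16 fibroblast markers on the array were detected in both conditions, with a median log2 difference, exposed minus control, of -0.08, 5 above 0 and 11 below, and a summed intensity of 220623 in exposed and 239316 in control cells. Of 14 macrophage and leukocyte markers, 13 were detected as well, and Itgam was not. Their summed intensity was 197188 in exposed and 187221 in control cells. The 13 had a median difference of 0.16, with 10 above 0 and 3 below, and a range of -0.51 to 0.80. Of all detected genes, 55.8% lay above 0 and 44.0% below. Cd52 had the largest difference of the 13, at 0.80. The brightest probe of the lysozyme gene Lyz2 had a normalized log2 signal of 15.38 in exposed and 15.49 in control cells. Other detected probes of Lyz2 differed by 0.75 and 0.15, against that direction. Ptprc, the pan-leukocyte antigen gene, was detected in control cells alone. The part of the cells carrying these markers in the histone values was not tested.

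Histones H2A, H2B, H3 and H4 form the core on which DNA is wound, and histone H1 binds the DNA between neighbouring cores. The clustered genes lack introns, are transcribed mainly in S phase, and mostly give mRNAs that end in a stem-loop and carry no poly(A) tail. Most variant genes lie apart from the clusters, are expressed outside S phase too, and give polyadenylated mRNAs. The labelling kit named in the labels primes on poly(A) tails, so for clustered genes the arrays report mainly the polyadenylated or internally primed part of the transcripts. Many clustered genes are near-identical in their coding sequence and the probe sequences were not used here, so the signal of one member may include that of another. In bulk RNA, fewer cells that make a transcript and less transcript per cell cannot be told apart.

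By the brightest detected probe, 0 histone genes were 2-fold or more higher in exposed cells (0.52% of all genes) and 0 lower (0.485%). Of the detected clustered genes, 11 of 12 H2A genes had higher values in exposed cells (55.8% of all detected genes). Of 9 H2B genes, 6 had lower values (44.0%). H2ac4, among the 11, was detected in exposed cells alone and could not lie below 0. Of the 11 H2A genes detected on both arrays, 10 lay above 0. Detection was taken as a detection p below 0.01, and 39 of the 58 genes had at least 1 detected probe. Of these, 36 were detected on both arrays, 3 in exposed cells alone and 0 in control cells alone. The other 19 genes, 17 clustered and 2 variant, had intensities of 92.7 to 177 in exposed cells and 85.3 to 174 in control cells. They were H1f1, H1f3, H1f4, H1f6, H1f7, H1f8, H2ac1, H2ac6, H2bc1, H2bc3, H2bc8, H3c3, H3c8, H3c10, H4c2, H4c3, H4c8, H4c14 and H4c18. Germ-cell members are among them, such as the testis linker gene H1f6, the spermatid linker gene H1f7, the oocyte linker gene H1f8 and the testis pair H2ac1 and H2bc1.

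The 39 detected histone genes had a median log2 difference of 0.15, against 0.03 for all 8651 detected genes. A difference above 0 was found for 27 of the 39 (55.8% of all detected genes), and one below 0 for 12 (44.0%). At a limit of 1.5-fold, 3 histone genes were higher in exposed cells (3.34% of all genes) and 1 was lower (2.91%). At 2-fold, 0 were higher (0.52% of all genes) and 0 lower (0.485%). These counts past a fold limit are too small to read against the shares of all genes. The 3 genes detected in exposed cells alone could only lie above 0. Among the 36 detected on both arrays, the median was 0.17 and 24 lay above 0 (55.8% of all genes so detected). With no detection filter, the median of all 58 genes was 0.15 and 39 lay above 0 (53.7% of all 16593 genes).

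**Figure D1:**
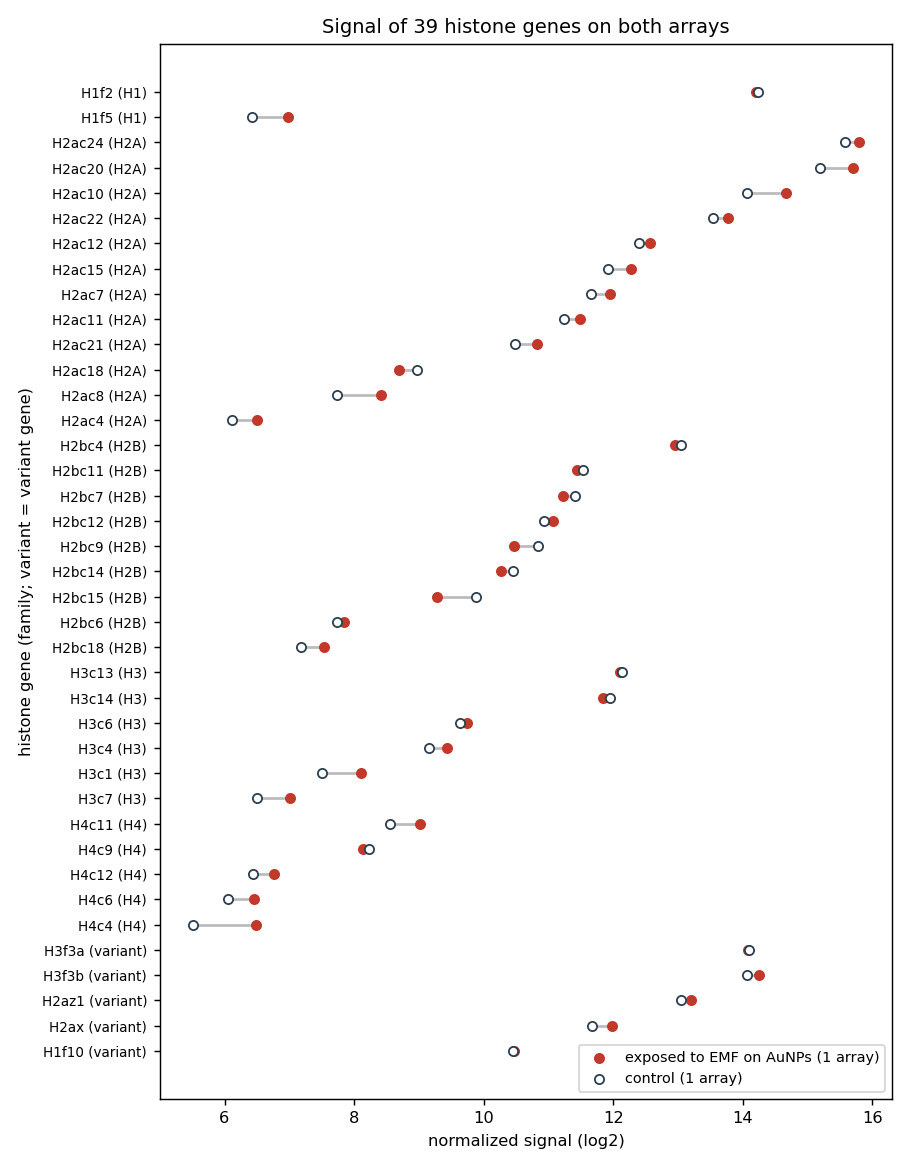
Normalized log2 signal (horizontal axis) of the 39 detected histone genes, 1 row each, with filled points for the exposed array and open points for the control array. Filled points lie to the right for 11 of 12 clustered H2A genes and to the left for 6 of 9 clustered H2B genes. H2ac4, among the 11, was detected on the exposed array alone. Signals of different probes are not on a common scale of abundance.

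Dim probes vary more, so each difference was also set against a robust SD, the scaled median absolute deviation of the differences of all genes of like signal in 20 equal bins. It lay between 0.14 and 0.38 for histone genes. True differences between the cultures add to it, and it does not replace a replicate error. At 1 robust SD or more, 17 histone genes were higher in exposed cells (19.0% of all genes) and 2 were lower (14.9%). At 2 robust SDs or more, 4 were higher (4.09% of all genes) and 1 was lower (4.18%). The 4 higher genes were the clustered H2A genes H2ac8, H2ac10, H2ac15 and H2ac20, and the lower gene was the clustered H2B gene H2bc15.

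**Figure D2:**
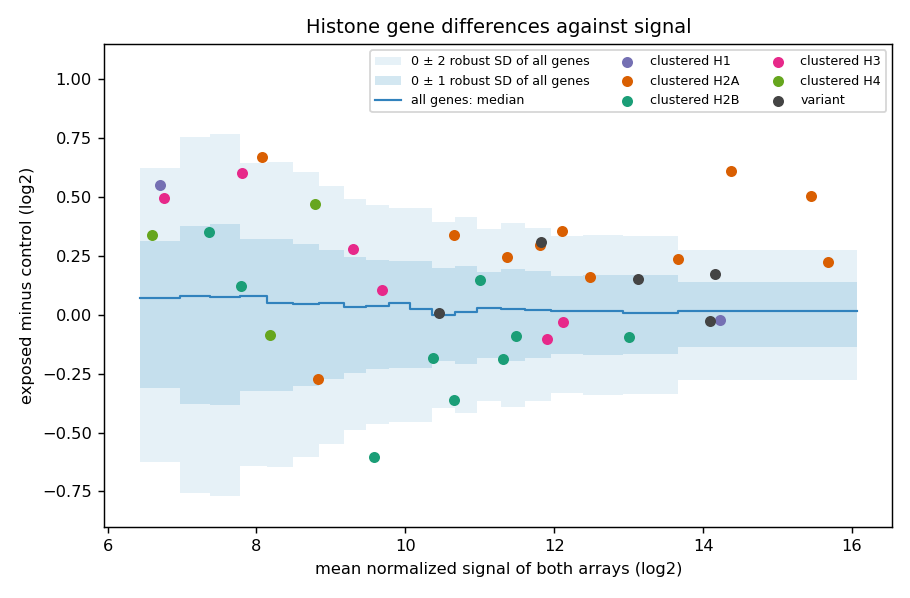
Log2 difference, exposed minus control (vertical axis), of the 36 histone genes detected on both arrays against their mean normalized log2 signal (horizontal axis). Shading marks 1 and 2 robust SDs of all genes about 0 in each of 20 signal bins, and the line is the median of all genes. H2ac10 and H2ac20 stand above the shading at high signal, and H2bc15 stands below it.

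Clustered H2A genes encode the core histone that pairs with H2B in a dimer. Of 14 on the array, 12 were detected. Their median log2 difference was 0.27, and 11 of the 12 lay above 0 (55.8% of all detected genes). H2ac4, detected in exposed cells alone, could not lie below 0. Among the 11 detected on both arrays, the median was 0.30 and 10 lay above 0 (55.8% of all genes so detected). H2ac10 (Hist1h2af) had an intensity of 26109 in exposed and 17474 in control cells and was 1.53-fold higher in exposed cells. Its log2 difference of 0.61 was 4.43 robust SDs. It stayed past 1.5-fold under every setting tried except cyclic loess, where the difference was 0.57. H2ac20 (Hist2h2ac), of the cluster on chromosome 3, had an intensity of 52841 in exposed and 37727 in control cells. It was 1.42-fold higher in exposed cells, a difference of 0.51 or 3.66 robust SDs. H2ac24 (Hist1h2ap) had an intensity of 57172 in exposed and 48274 in control cells, a difference of 0.23 or 1.64 robust SDs. The last 2 genes lie close to the highest intensity of any probe, which was 68139 on the exposed and 69257 on the control array, and compression of their differences near that end was not tested.

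H2ac8 (Hist1h2ae) was a dimmer H2A gene, with an intensity of 425 in exposed and 324 in control cells. Its difference of 0.67 was 1.59-fold and 2.08 robust SDs, and it was 0.49 without background correction, which is under 1.5-fold. H2ac15 (Hist1h2ak) had an intensity of 5019 in exposed and 4034 in control cells, a difference of 0.35 or 2.13 robust SDs. In the dimmer 10 of the 20 signal bins, H2A genes did not share a direction, since H2ac8 lay above 0 and H2ac18 below it.

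The remaining H2A genes had smaller differences. H2ac21 had an intensity of 1893 in exposed and 1565 in control cells, a difference of 0.34. H2ac7 had 4004 in exposed and 3364 in control cells, a difference of 0.30. H2ac11 had 2943 in exposed and 2565 in control cells, a difference of 0.24. All of these were above 1 robust SD. H2ac22 had 14104 in exposed and 12020 in control cells, a difference of 0.24, also above 1 robust SD. H2ac12 had 6110 in exposed and 5562 in control cells, a difference of 0.16 within the robust SD of 0.17. H2ac4, with 186 in exposed and 170 in control cells, was detected in exposed cells alone and was at least 1.08-fold higher there on the background-corrected scale, on which all such bounds are given. The exception in direction was H2ac18 (Hist2h2aa1), with an intensity of 495 in exposed and 615 in control cells and a difference of -0.27, within the robust SD of 0.30. In the brighter 10 of the 20 signal bins, all 9 clustered H2A genes lay above 0 (53.8% of all genes there), and 8 of them at 1 robust SD or more (18.2%). This split by signal was not planned, and it leaves out H2ac18. The 9 genes come from 1 array per condition and their probes may share signal, so they are not replicates.

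Clustered H2B genes encode the partner of H2A. Of 12 on the array, 9 were detected, all in both conditions. Their median difference was -0.10, and 6 of the 9 lay below 0 (44.0% of all genes). With no detection filter 6 of all 12 lay above 0, so the share below 0 depends on the genes counted. Averaging detected probes turned H2bc4 to 0.07, so the count below 0 depends on how probes are combined. The median stayed below 0 under the settings tried. H2bc15 (Hist1h2bn) had an intensity of 697 in exposed and 1068 in control cells and was 1.52-fold lower in exposed cells. Its difference of -0.60 was -2.60 robust SDs, and it was -0.53 without background correction, which is under 1.5-fold. H2bc9 (Hist1h2bh) had an intensity of 1493 in exposed and 1946 in control cells, a difference of -0.36 or -1.82 robust SDs.

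The other 7 H2B genes differed by less than 1 robust SD. H2bc7 had an intensity of 2448 in exposed and 2856 in control cells, a difference of -0.19. H2bc14 had 1302 in exposed and 1530 in control cells, a difference of -0.18. H2bc4 had 8044 in exposed and 8522 in control cells, a difference of -0.10, and H2bc11 had 2837 in exposed and 3096 in control cells, a difference of -0.09. The 3 H2B genes above 0 were H2bc12, H2bc6 and H2bc18. H2bc12 had 2220 in exposed and 2074 in control cells, a difference of 0.15, and H2bc18 had 276 in exposed and 252 in control cells, a difference of 0.35. H2bc6 had 319 in exposed and 322 in control cells, a difference of 0.12 after normalization, so that its sign differs between the deposited intensities and the normalized values.

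**Figure D3:**
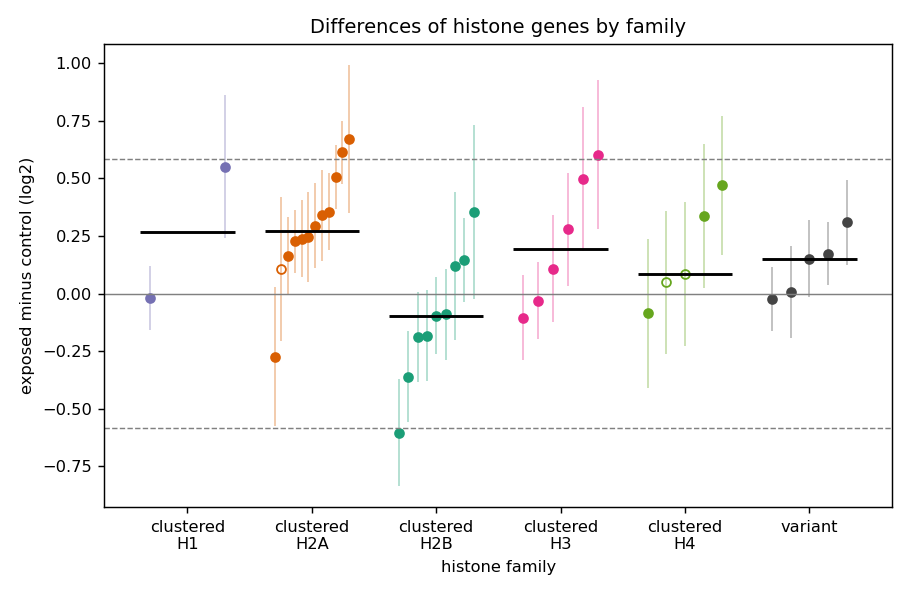
Log2 difference, exposed minus control (vertical axis), of each detected histone gene by family (horizontal axis), with bars of 1 robust SD of all genes of like signal, which are not replicate errors. Open points are bounds, black lines are family medians (0.27 for H2A, -0.10 for H2B) and dashed lines mark 1.5-fold.

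The median of clustered H2A genes exceeded that of clustered H2B genes by 0.37 (log2), and by 0.35 to 0.41 under the other settings. Without replicates this contrast was not tested. The families overlap, since H2ac18 differed by -0.27 and H2bc18 by 0.35, or by 0.22 without background correction.

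**Figure D4:**
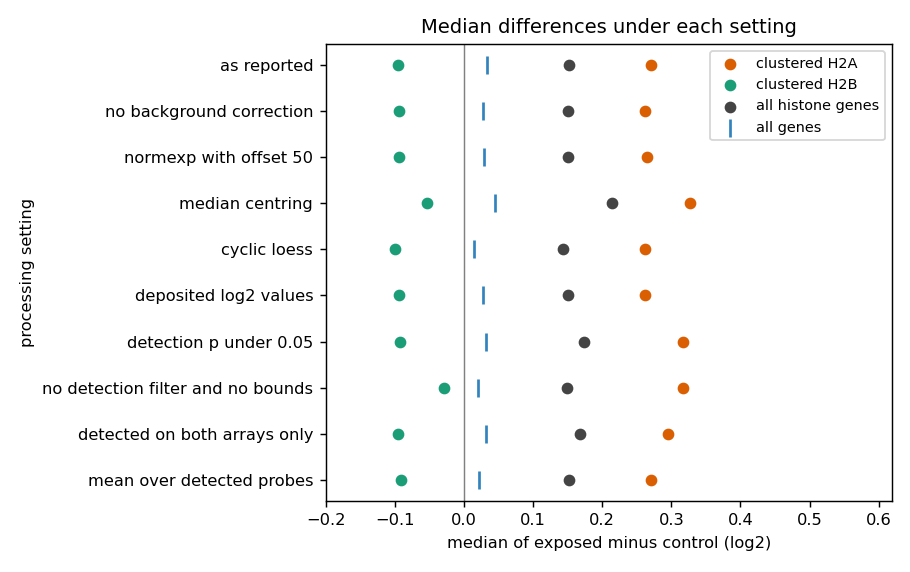
Median log2 difference, exposed minus control (horizontal axis), under 10 processing settings (rows) for clustered H2A genes, clustered H2B genes, all histone genes and all genes. The H2A median stays at 0.26 or above and the H2B median stays below 0 in each row. The rows for the deposited log2 values and for no background correction hold the same values.

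Many H2A and H2B genes lie head to head and share the DNA between their starts. In the RefSeq promoter table (build GRCm38.p6), 6 pairs of an H2A and an H2B gene measured here had starts at most 500 bases apart. Both genes were detected on both arrays in 4 of them, all on chromosome 13. In H2ac15 and H2bc15, 164 bases apart, the H2A gene differed by 0.35 and the H2B gene by -0.60. In H2ac7 and H2bc7, 174 bases apart, the H2A gene differed by 0.30 and the H2B gene by -0.19. In H2ac11 and H2bc11, 249 bases apart, the H2A gene differed by 0.24 and the H2B gene by -0.09. The partners thus differed in sign in 3 pairs. In H2ac12 and H2bc12, 178 bases apart, the H2A gene differed by 0.16 and the H2B gene by 0.15. The gap between partners, H2A minus H2B, was 0.96, 0.48, 0.34 and 0.02 in the order given. These pairs were examined after the family medians were known. In the other 2 pairs, H2ac1 and H2bc1 were not detected, and H2ac8 was detected without its partner H2bc8.

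**Figure D5:**
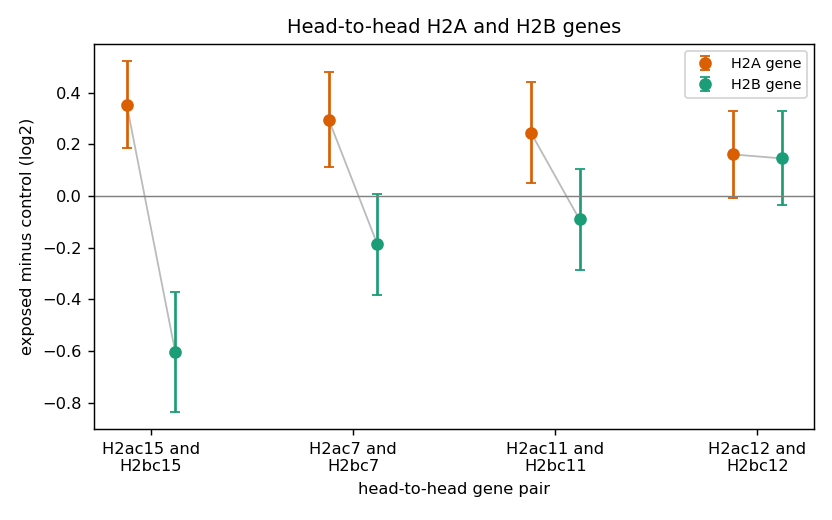
Log2 difference, exposed minus control (vertical axis), of the H2A gene and the H2B gene of 4 head-to-head pairs (horizontal axis), with bars of 1 robust SD of all genes of like signal, which are not replicate errors. The partners lie apart in H2ac15 and H2bc15 and together in H2ac12 and H2bc12.

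The promoter windows of 4 genes are shown because they bracket this contrast. H2ac15 and H2ac12 belong to the pairs with the largest and the smallest gap between partners, and their windows reach back past the start of the H2B partner. H2ac10 had the largest difference of the H2A genes in the brighter 10 bins, and H2bc9 the second lowest of the H2B genes. Each window holds 250 bases before and 50 after the RefSeq start, from build GRCm38.p6, written 5′ to 3′ on the gene's strand. Capitals mark 4 motifs, read on both strands: the TATA box letters TATAAA, the CCAAT box letters CCAAT, the octamer letters ATTTGCAT and the E2F-like letters TTTCGCGC. No match overlapped another in the 4 windows.
H2ac15, chr13:21753863-21754162 (- strand): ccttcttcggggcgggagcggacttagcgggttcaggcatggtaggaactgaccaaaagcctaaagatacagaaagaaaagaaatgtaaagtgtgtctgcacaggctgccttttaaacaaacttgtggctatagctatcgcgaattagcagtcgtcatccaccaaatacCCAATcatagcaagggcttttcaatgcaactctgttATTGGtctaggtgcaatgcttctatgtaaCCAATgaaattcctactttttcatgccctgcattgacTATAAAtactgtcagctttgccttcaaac
H2ac12, chr13:22035594-22035893 (- strand): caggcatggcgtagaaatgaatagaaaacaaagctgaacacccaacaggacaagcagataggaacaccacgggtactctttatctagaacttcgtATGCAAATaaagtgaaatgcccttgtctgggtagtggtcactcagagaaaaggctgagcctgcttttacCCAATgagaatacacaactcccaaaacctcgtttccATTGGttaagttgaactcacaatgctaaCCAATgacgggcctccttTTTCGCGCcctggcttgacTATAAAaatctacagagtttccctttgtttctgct
H2ac10, chr13:23533625-23533924 (+ strand): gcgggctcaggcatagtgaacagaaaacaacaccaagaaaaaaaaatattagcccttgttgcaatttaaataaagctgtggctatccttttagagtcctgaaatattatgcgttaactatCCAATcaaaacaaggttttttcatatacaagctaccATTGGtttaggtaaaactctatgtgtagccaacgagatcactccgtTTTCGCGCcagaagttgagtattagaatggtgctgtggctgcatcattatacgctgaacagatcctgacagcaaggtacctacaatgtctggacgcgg
H2bc9, chr13:23543395-23543694 (- strand): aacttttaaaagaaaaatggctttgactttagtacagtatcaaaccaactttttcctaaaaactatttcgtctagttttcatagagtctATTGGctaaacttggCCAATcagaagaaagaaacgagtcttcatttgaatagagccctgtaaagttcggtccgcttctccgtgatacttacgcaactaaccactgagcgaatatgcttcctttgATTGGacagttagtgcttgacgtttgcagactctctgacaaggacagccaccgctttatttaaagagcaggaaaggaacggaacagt
CCAAT was matched 3 times each in the windows of H2ac15, H2ac12 and H2bc9 and 2 times in that of H2ac10. The window of H2ac12 also held 1 match each of TATAAA, the octamer and TTTCGCGC. That of H2ac15 held 1 match of TATAAA, and that of H2ac10 held 1 match of TTTCGCGC.

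Of the 58 genes, 53 had windows that were kept from the table, 54 in all. Any window on a chromosome that holds none of the 58 genes was left out. CCAAT was present in 14 of 14 clustered H2A and 12 of 12 clustered H2B windows, and in 37.4% of all 32851 promoters. The octamer, a known element of H2B promoters, was present in 6 of the H2A and 7 of the H2B windows, and in 1.74% of all promoters. TATAAA was present in 11 of the H2A and 6 of the H2B windows, and in 13.6% of all promoters. TTTCGCGC was present in 5 of the H2A and 3 of the H2B windows, and in 0.323% of all promoters. Clustered H4 windows held CCAAT in 2 of 9 cases and TATAAA in 6. Windows of head-to-head partners overlap, so their matches are in part the same ones, and a match is only a match of letters.

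Clustered H3 genes encode the core histone whose tail carries many of the known acetyl and methyl marks. Of 9 on the array, 6 were detected, all in both conditions, with a median of 0.19. H3c1 (Hist1h3a) had an intensity of 362 in exposed and 288 in control cells, a difference of 0.60 or 1.52-fold. It was 0.42 without background correction, which is under 1.5-fold. H3c7 had 221 in exposed and 193 in control cells, a difference of 0.50. H3c4 had 771 in exposed and 690 in control cells, a difference of 0.28, and H3c6 had 932 in exposed and 913 in control cells, a difference of 0.11. Only H3c1, H3c7 and H3c4 were at 1 robust SD or more. The chromosome 3 genes H3c13, with 4457 in exposed and 4657 in control cells, and H3c14, with 3737 in exposed and 4107 in control cells, lay at -0.03 and -0.10. Both were within 1 robust SD of 0, and H3c13 was 0.01 with median centring. A second probe of H3c14 was detected in control cells alone, with an intensity of 162 in exposed and 321 in control cells, and was at least 2.46-fold lower in exposed cells on the background-corrected scale. Without background correction its difference was -0.92, which is under 2-fold, so the size rests on that correction. The probes of this gene differ in size though not in sign.

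Clustered H4 genes all encode nearly the same protein. Of 10 on the array, 5 were detected, 3 of them in both conditions. H4c11 had an intensity of 600 in exposed and 488 in control cells, a difference of 0.47. H4c12 had 203 in exposed and 189 in control cells, a difference of 0.34. Both were at 1 robust SD or more. H4c9 had 369 in exposed and 410 in control cells, a difference of -0.09. H4c4, with 185 in exposed and 140 in control cells, was detected in exposed cells alone and was at least 1.06-fold higher there. H4c6, with 183 in exposed and 167 in control cells, was likewise detected in exposed cells alone and was at least 1.03-fold higher. The H4 median depends on such bounds: it was 0.09 with them, 0.34 over the 3 genes detected on both arrays, 0.18 over all 10 genes with no detection filter, 0.04 without background correction or with cyclic loess, and 0.05 with normexp or median centring.

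Among 6 clustered H1 genes, 2 were detected. H1f2 (Hist1h1c), a main somatic linker histone gene, had an intensity of 19042 in exposed and 19322 in control cells, a difference of -0.02. H1f5 (Hist1h1b) was dim, with 218 in exposed and 188 in control cells and a difference of 0.55, which was 0.28 without background correction.

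Of the 7 variant genes, 5 were detected, 4 lay above 0 (55.8% of all detected genes) and none passed 1.5-fold. Their median was 0.15, as was that of the 34 detected clustered genes. Over genes detected on both arrays alone, the clustered median was 0.23 and the variant median 0.15. H2ax, whose product is phosphorylated at DNA breaks, had an intensity of 4095 in exposed and 3386 in control cells, a difference of 0.31 or 1.68 robust SDs. H2az1, which encodes the variant H2A.Z found at promoters, had 9461 in exposed and 8507 in control cells, a difference of 0.15. The 2 genes of the replacement H3 differed in sign. H3f3b had 19404 in exposed and 17488 in control cells, a difference of 0.17. H3f3a had 17159 in exposed and 17682 in control cells, a difference of -0.03, within the robust SD of 0.14. H3f3a was 0.03 with median centring, so the difference in sign depends on the processing. The linker gene H1f10 had 1484 in exposed and 1529 in control cells, a difference of 0.01. Averaging its detected probes gave -0.01, so the count of variant genes above 0 depends on how probes are combined.

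Several probes existed for 6 of the histone genes. Besides H3c14, a second detected probe was found for H1f10, at -0.04, and for H2bc4. The second H2bc4 probe had an intensity of 195 in exposed and 152 in control cells, was detected in exposed cells alone and was at least 1.18-fold higher there. It thus went against the first probe, at -0.10. For H2bc18, H3c7 and H3f3a the other probes were not detected.

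Of 11 genes of histone mRNA transcription and 3′ processing, 6 were detected, with a median of 0.10, 5 above 0 and 1 below, and 0 past 1.5-fold in either direction. Of all detected genes, 55.8% lay above 0 and 44.0% below. Slbp, which encodes the stem-loop binding protein, was not detected, and Npat was not analysed here. Cpsf2, of the cleavage complex, lay at 0.49 and the helicase gene Upf1 at 0.34. Other detected probes of Upf1 differed by 0.73 and 0.41, so the count past 1.5-fold holds for the brightest probes only. Cpsf3, the cleavage nuclease gene, was detected in exposed cells alone, with a difference of 0.12 without background correction, and the transcription factor gene Hinfp in control cells alone, with one of -0.31. Of 17 histone chaperone genes, 15 were detected, with a median of 0.05, 8 above 0 and 7 below. Asf1a, which hands H3 and H4 to assembly factors, was the 1 member past 1.5-fold (2.91% of all genes were that much lower), at -0.69, and it was -0.43 without background correction, which is under 1.5-fold. Chaf1b, of the assembly factor CAF-1, and Supt6 lay at 0.32 each, Chaf1a at 0.21 and Nasp at -0.15. Another detected probe of Nasp differed by 0.05, against that direction. The 7 genes of the complexes that exchange H2A.Z were all detected, with a median of -0.02, 2 above 0 and 5 below, and 0 past 1.5-fold in either direction. Their largest differences were those of Vps72 at -0.49, Ruvbl2 at 0.19, Yeats4 at 0.16 and Dmap1 at -0.05.

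Of 23 S phase and DNA synthesis genes, 22 were detected, with a median of 0.06. Of the 22, 14 lay above 0 (55.8% of all detected genes) and 8 below (44.0%). The helicase subunit gene Mcm7 was past 1.5-fold higher in exposed cells at 0.95 (3.34% of all genes). Mcm3, of the same complex, was past 1.5-fold lower at -0.74 (2.91%). The repair gene Ung lay at 0.46, the cyclin gene Ccne2 at -0.43, Pcna at -0.31 and Rrm2 at -0.30. The genes named here thus lay on both sides of 0. Of 10 CDK inhibitor and retinoblastoma genes, 9 were detected, with a median of 0.19. Of the 9, 6 lay above 0 (55.8% of all detected genes) and 3 below (44.0%). The inhibitor genes Cdkn1b and Cdkn2a lay at 0.82 each, past 1.5-fold (3.34% of all genes were that much higher). Cdkn2d lay at 0.46 and Cdkn1c at -0.38. The reference genes Gapdh and Actb lay at 0.03 and 0.12.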

How the data were processed

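The members and gene lists were chosen with earlier results of these data known. Per the labels' protocols, RNA was isolated with Trizol and labelled with Illumina's TotalPrep kit. The submitters' processing notes name GenomeStudio 2011.1. For each probe the authors deposited a linear intensity, not normalized between arrays, and a detection p-value in steps of 1 in 798. Their deposited log2 values equalled quantile normalized log2 intensities without background correction to within 4.99988e-07. The platform annotation gave 23978 probes 1 gene, 0 several and 1719 none, and older symbols came from RefSeq (GRCm38.p6).

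The neqc function (limma 3.58.1, R 4.3.3, offset 16) corrected background and quantile normalized the intensities, and was tested on simulated arrays. The brightest probe detected (p below 0.01) on at least 1 array stood for a gene. With detection on 1 array only, the fold is a bound against the higher of the dim value and the dim array's lowest detected value. Every detected histone gene is named, with the 4 largest differences of each related list and a fixed set of genes. Limits were 1.5-fold and 2-fold. The number of arrays limits precision.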

Additional observations from a re-analysis of the deposited data

How the results depend on the processing

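No paired analysis was possible because each condition has 1 array, and for the same reason no replicate could be left out. The median of all histone genes lay between 0.14 (cyclic loess) and 0.21 (median centring) over the settings tried, that of variant genes between 0.14 and 0.23, and the count above 0 stayed at 27 or more except for 24 of the 36 genes detected on both arrays. The median of clustered genes was 0.23 with detection at p under 0.05 and over genes detected on both arrays, against 0.15. The count past 1.5-fold higher was 1 in place of 3 without background correction, with normexp, with cyclic loess and in the deposited log2 values, and the count lower was 0 in place of 1 without background correction, with normexp and in the deposited values. Averaging the detected probes of a gene gave 2 lower genes, through the second probe of H3c14, whose difference became -0.70, and turned H2bc4 to 0.07. The counts past 2-fold were 0 in both directions under all of these settings. The deposited log2 values are those without background correction, so they do not count as a separate setting. The family medians and the H2A minus H2B contrast were followed through the settings after the data were seen. The H2B median was -0.05 with median centring and -0.03 with no detection filter, where 6 of 12 H2B genes and 12 of 14 H2A genes lay above 0. Dim genes, which include all clustered H4 genes, are limited by signal over background.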

Other observations

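Histone genes that the symbol rule does not take include Macroh2a1, which encodes the macroH2A1 variant enriched on the inactive X chromosome and other repressed chromatin, and Cenpa, which encodes the centromeric H3 variant. Macroh2a1 had an intensity of 4475 in exposed and 3149 in control cells, a log2 difference of 0.56, and 0.54 without background correction. The robust SD of genes of like signal was 0.18. Cenpa had 16423 in exposed cells and 13934 in control cells, a difference of 0.25. Both lay above 0, as 55.8% of all detected genes did, and neither passed 1.5-fold. The remaining histone genes outside the rule (H2aj, H2al2a, H2aw, H2bu1-ps, H2bu2, H4f16 and Hils1) were not detected on either array. Macroh2a1 was named after its value was seen.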
